A study of Mus musculus with 12 samples.

Results

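Fibroblast growth factor (FGF) signaling genes were followed in mouse astrocytes (ASTs), in the spheres grown from them (A-iSCs, which the study calls AST-derived stem cells), and in 2 brain-derived preparations of neural precursor cells (NPCs). The 10 genes were the ligand genes Fgf1 and Fgf2, the receptor genes Fgfr1, Fgfr2, Fgfr3 and Fgfr4, the inhibitor genes Spry1, Spry2 and Spry4, and the transcription factor gene Etv5. They were taken by symbol from an RNA-sequencing table of 55862 genes, and all 10 were present. The table held 12 samples in 4 groups of 3, all from C57BL/6 or C57BL/6J mice with no transgene stated. ASTs were astrocytes of the cerebral cortex of early postnatal C57BL/6 pups, grown as monolayers with fetal bovine serum and collected at incubation day 0 as the negative control. A-iSCs were such ASTs after 5 days as spheres on agarose-coated dishes, to which cells attach poorly. P56-NPCs came from the dissociated subependymal zone of adult C57BL/6J mice (postnatal day 56), and P0-NPCs from the dissociated hippocampus of newborn C57BL/6J mice (postnatal day 0), and both served as positive controls. No sorting step was stated for either NPC group. For P56-NPCs the study describes a cell strainer, 3 rounds of centrifugation and resuspension in culture medium, and for P0-NPCs a centrifugation. Whether either group was enriched or cultured before RNA was taken was not stated. The study's methods mention independent experiments in general, but no source used here tied a sequenced replicate to an animal or a culture. The p-values given here measure the spread between these samples, which may be technical.

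FGFs are secreted proteins that bind heparan sulfate and receptor tyrosine kinases at the cell surface. An activated FGF receptor passes its signal through docking proteins to RAS and the kinases RAF, MEK and ERK, and also to PI3K and phospholipase C gamma. ERK activity induces ETS family transcription factors such as ETV5 and also induces Sprouty proteins, which restrain the same pathway, so Sprouty and Etv5 transcripts are widely used as a readout of it. In the brain, FGF2 is a standard mitogen of cultured neural precursor cells, and astrocytes are a known source of FGF1 and FGF2 and a known site of FGFR3 expression.

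Levels are given as FPKM, fragments per length of gene and depth of library as scaled by the authors, so they can be compared between genes per length. Each sample held between 17077780 and 24452419 fragments, and 3 fragments on a gene of 1 kb amounted to 0.103 to 0.187 FPKM depending on the sample. Before any result, it was noticed that A-iSCs replicate 3 and ASTs replicate 2 stood apart from the other samples of their groups, with a chi-square per degree of freedom over genes of 75.5 and 95.1 for the former and 39.5 and 40.9 for the latter, against 12.3 and 2.51 between the remaining pairs. Markers of more than one cell type were measured in each preparation. ASTs carried all 7 astrocyte markers. The 8 markers of pericytes, smooth muscle or fibroblasts summed to 1890 to 2280 FPKM in ASTs, 33.2 to 66.6 FPKM in A-iSCs, 16.4 to 31.0 FPKM in P56-NPCs and 135 to 136 FPKM in P0-NPCs, and none was at 0 throughout a group. In ASTs they averaged 1850 FPKM for Acta2, 158 for Col1a1, 13.3 for Tagln, 11.1 for Pdgfrb and at most 0.311 FPKM for Rgs5, Dcn and Lum, and Col1a2 ranged from 13.4 to 16.9 FPKM. A-iSCs carried 193 to 246 summed FPKM of microglia markers against 20.1 to 23.8 in ASTs. P56-NPCs carried 10800 to 12300 summed FPKM over 6 oligodendrocyte markers, and the progenitor marker Nes averaged 3.76 FPKM there against 196 in ASTs. P0-NPCs carried 774 to 945 summed FPKM over 8 neuron markers. In such bulk samples, fewer cells of a type and less RNA per cell cannot be told apart, and the part of cell composition in the levels below was not tested.

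Of the 10 genes, 6 had their highest mean level in ASTs, namely Fgf2, Fgfr1, Spry1, Spry2, Spry4 and Etv5. Fgf1, Fgfr2 and Fgfr3 peaked in P56-NPCs, and Fgfr4, which stayed below 1 FPKM everywhere, was highest in P0-NPCs. In TPM, which sets every sample to the same total, 5 genes were highest in ASTs, since the Fgfr1 mean was then 131 in P0-NPCs and 125 in ASTs. Over all genes, FPKM summed to 323809 to 388492 in ASTs, 276627 to 336529 in A-iSCs, 475056 to 502486 in P56-NPCs and 245937 to 275064 in P0-NPCs. TPM thus lowers every gene of P56-NPCs relative to the other groups, and the TPM differences below include this shift. The spheres stood below ASTs in Fgf1, all 3 Sprouty genes and Etv5, and above ASTs in Fgfr3.

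**Figure D1:**
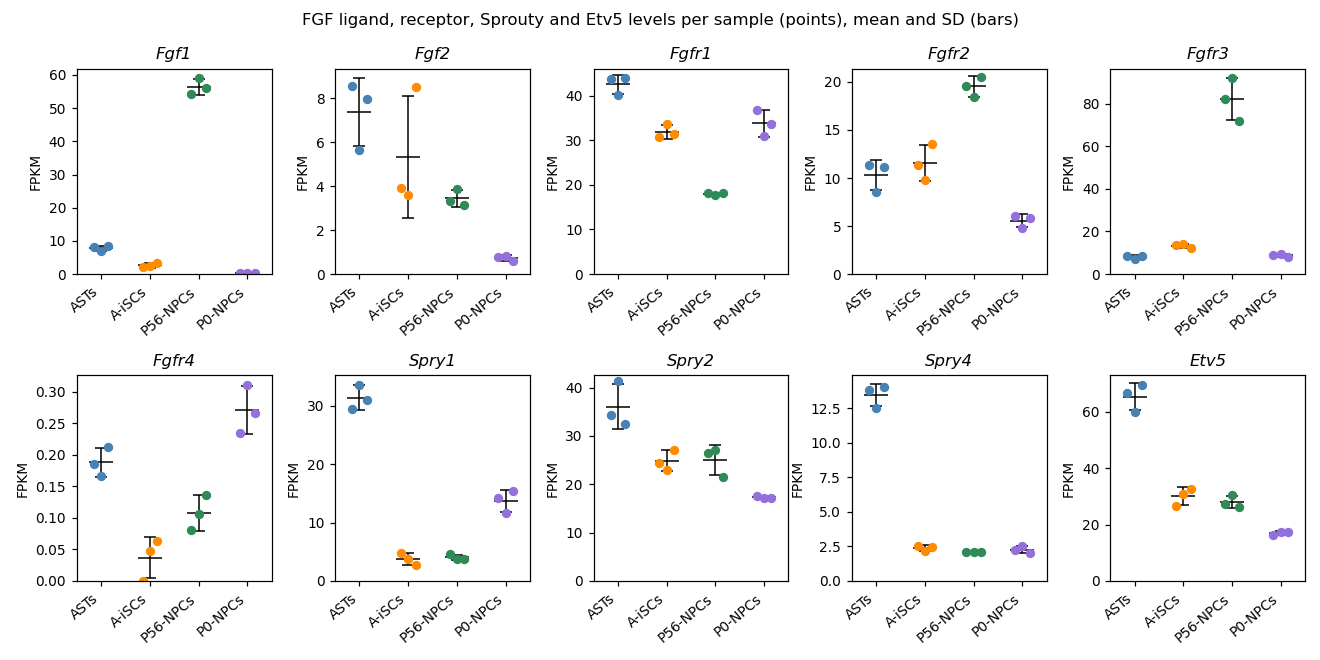
Level of each of the 10 genes in FPKM (y axis, from 0, scaled separately for each gene) in the 4 groups (x axis). Points are the 3 samples of a group, the wide dash is their mean and the whiskers are 1 SD; the 3 ASTs samples lie above all others for Spry1, Spry4 and Etv5, and the 3 P56-NPCs samples lie above all others for Fgf1, Fgfr2 and Fgfr3.

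Among the ligands, Fgf1 encodes a growth factor that binds all FGF receptors. It measured 8.16, 6.92 and 8.33 FPKM in the 3 ASTs samples, 2.14, 2.29 and 3.44 in A-iSCs, 54.1, 59.0 and 56.2 in P56-NPCs, and 0.296, 0.465 and 0.253 in P0-NPCs. The 4 groups did not overlap, and every step in the order P56-NPCs, ASTs, A-iSCs, P0-NPCs passed the test. The mean was 7.23 times that of ASTs in P56-NPCs and 2.97-fold lower than that of ASTs in A-iSCs. Between both NPC groups Fgf1 differed by 167-fold in FPKM and 87.3-fold in TPM, the largest span of any member on both scales, with 37 to 74 fragments behind each P0-NPCs value.

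Fgf2 encodes basic FGF, the mitogen used to expand neural precursor cells in culture. It measured 8.57, 5.64 and 7.96 FPKM in ASTs, 3.90, 3.59 and 8.53 in A-iSCs, 3.32, 3.86 and 3.14 in P56-NPCs, and 0.786, 0.820 and 0.584 in P0-NPCs. A-iSCs replicate 3 lay inside the range of ASTs while the other 2 A-iSCs samples lay below it, and the coefficient of variation of the A-iSCs was 51.8%, against 10.8% to 20.9% in the other groups. The same sample held the highest summed level of astrocyte markers among the A-iSCs, 2450 FPKM against 1200 and 1490 FPKM. With all samples, Fgf2 in A-iSCs differed from ASTs by −0.47 on the log2 scale (95% interval −1.16 to 0.22, limma adjusted p = 0.212). Without A-iSCs replicate 3 the difference was −0.81 (limma adjusted p = 0.00691). P0-NPCs were lower in Fgf2 than each of the other groups, with no overlap.

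The balance between both ligands, chosen for description after the values were seen, differed in the same groups. The ratio of Fgf1 to Fgf2 was 1.08 ± 0.140 in ASTs (SD, n = 3), 0.531 ± 0.119 in A-iSCs, 16.5 ± 1.31 in P56-NPCs and 0.459 ± 0.0979 in P0-NPCs. Such a ratio within a sample does not change with the scaling between samples. The A-iSCs did not overlap ASTs or P56-NPCs, and they overlapped P0-NPCs (exact permutation test, two-sided, p = 0.1, 0.1 and 0.5; 0.1 is the smallest p that 3 against 3 samples allow).

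The receptors are tyrosine kinases that differ in their ligand preference and in the cells that carry them. Fgfr1, the receptor gene with the broadest use in neural precursors, measured 43.8, 40.1 and 43.9 FPKM in ASTs, 30.7, 33.7 and 31.4 in A-iSCs, 18.1, 17.8 and 18.2 in P56-NPCs, and 36.8, 30.9 and 33.6 in P0-NPCs. ASTs lay above all other samples and P56-NPCs below all others, while A-iSCs and P0-NPCs overlapped. In TPM, ASTs (103 to 136) overlapped A-iSCs (91.2 to 114) and P0-NPCs (122 to 150) in Fgfr1, and P56-NPCs stayed below all others. The drop from ASTs to A-iSCs was small, at −0.40 on the log2 scale (SE 0.11, limma adjusted p = 0.0162). It missed the threshold without ASTs replicate 1, without ASTs replicate 3 or without A-iSCs replicate 1, each time at −0.38 (limma adjusted p = 0.0779, 0.0790 and 0.0570), and with samples scaled by library size alone, at −0.19 (limma adjusted p = 0.199).

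Fgfr2, whose product binds FGF1 and several other ligands, measured 11.3, 8.56 and 11.2 FPKM in ASTs, 11.3, 9.84 and 13.5 in A-iSCs, 19.6, 18.4 and 20.6 in P56-NPCs, and 6.08, 4.78 and 5.88 in P0-NPCs. ASTs and A-iSCs overlapped, with a difference of 0.15 on the log2 scale (95% interval −0.22 to 0.52, limma adjusted p = 0.462). In FPKM, P56-NPCs lay above and P0-NPCs below both cultures. In TPM, P56-NPCs (36.6 to 42.0) overlapped A-iSCs (31.8 to 48.9) and P0-NPCs (21.7 ± 2.93) overlapped ASTs (30.5 ± 7.31), and with library size alone the call between A-iSCs and P56-NPCs was lost.

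Fgfr3, known as an astrocyte receptor of the postnatal brain, measured 8.33, 7.29 and 8.55 FPKM in ASTs, 13.5, 14.2 and 12.4 in A-iSCs, 82.4, 92.0 and 72.0 in P56-NPCs, and 8.96, 9.30 and 8.10 in P0-NPCs. It was the only member that rose in A-iSCs relative to ASTs, by 0.66 on the log2 scale or 1.65-fold (SE 0.11, limma adjusted p = 0.00206), and all 3 A-iSCs samples lay above all ASTs and P0-NPCs samples. P56-NPCs still stood above A-iSCs, by 6.16-fold in FPKM and 3.86-fold in TPM. The summed astrocyte markers ranged from 140 to 159 FPKM in ASTs, 1200 to 2450 FPKM in A-iSCs, 2370 to 2590 FPKM in P56-NPCs and 237 to 302 FPKM in P0-NPCs. None of these 7 markers was at 0 in any group. Not all followed the sum: Aqp4, Aldh1l1 and Gja1 averaged 5.60, 14.2 and 7.16 FPKM in P0-NPCs, below the 30.8, 28.6 and 24.8 FPKM of ASTs, and the A-iSCs sample with the highest sum, replicate 3, had the lowest Fgfr3 of the A-iSCs. The part of these markers in the Fgfr3 levels was not tested.

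Fgfr4, the receptor best known from liver, rested on 11, 12 and 14 fragments in ASTs, 0, 4 and 6 in A-iSCs, 5, 6 and 8 in P56-NPCs, and 19, 32 and 26 in P0-NPCs. Its highest value was 0.310 FPKM, in P0-NPCs, whose samples lay above the limit of 3 fragments (0.0291 to 0.0370 FPKM there). The A-iSCs sample with no fragment allows a level of up to 0.0420 FPKM, counting 3 fragments as the limit and covering counting error only. Fgfr4 stayed below a group mean of 1 FPKM in all groups, did not pass the filter in any comparison, and leaves 9 tested members.

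The makeup of the receptor pool, a measure also chosen after the values were seen, set P56-NPCs apart. Fgfr1 made up 69.7% ± 1.54 of the summed receptor FPKM in ASTs (SD, n = 3), 56.1% ± 1.94 in A-iSCs, 15.1% ± 1.27 in P56-NPCs and 69.7% ± 1.28 in P0-NPCs. Fgfr3 made up 13.2% ± 0.213, 23.4% ± 1.65, 68.4% ± 3.39 and 18.2% ± 1.99 in the same order. The A-iSCs thus held a smaller Fgfr1 share and a larger Fgfr3 share than both ASTs and P0-NPCs, with no overlap (exact permutation test, two-sided, p = 0.1 for each, the smallest p that 3 against 3 samples allow). ASTs and P0-NPCs overlapped in the Fgfr1 share (exact permutation p = 1.0) but not in the Fgfr3 share (exact permutation p = 0.1). The Fgfr2 share of A-iSCs, 17.0% to 23.6%, overlapped that of ASTs, 15.3% to 17.8%. Summed over the 4 receptor genes, the level was 61.2 ± 4.39 FPKM in ASTs, 56.8 ± 1.20 FPKM in A-iSCs, 120 ± 8.78 FPKM in P56-NPCs and 48.4 ± 3.42 FPKM in P0-NPCs. In TPM these sums were 179 ± 30.1, 186 ± 21.2, 245 ± 16.1 and 188 ± 20.5 in the same order, so P56-NPCs alone stood apart.

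**Figure D2:**
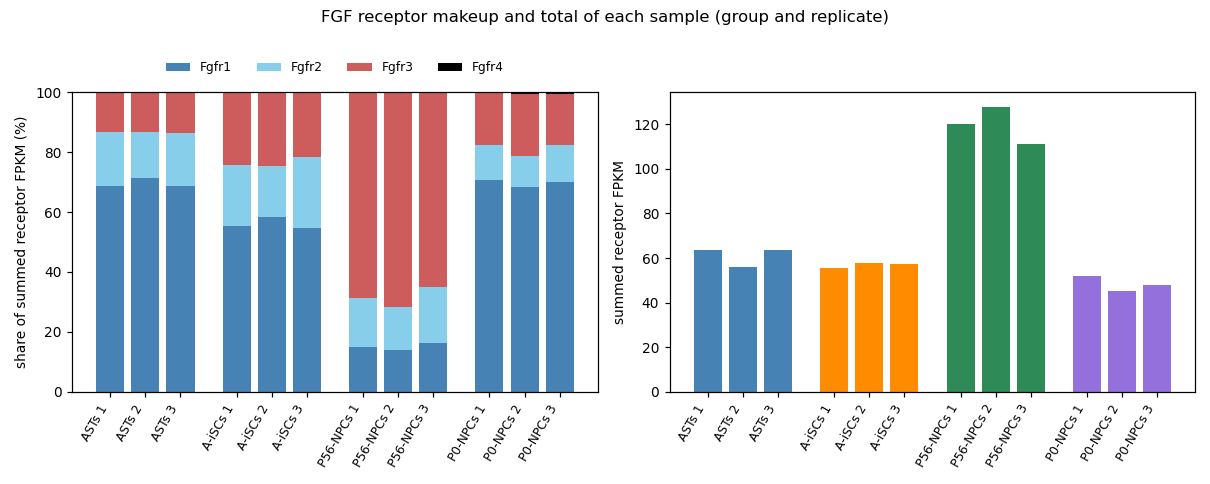
Left, share of each receptor gene in the summed receptor FPKM of a sample (y axis, percent); right, the summed receptor FPKM (y axis, from 0); each bar is 1 of the 12 samples, named by group and replicate. Fgfr1 is the largest part in ASTs, A-iSCs and P0-NPCs, and Fgfr3 is the largest part in P56-NPCs, whose totals of 111 to 128 FPKM lie above all others.

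Sprouty proteins are inducible inhibitors of receptor tyrosine kinase signaling that act between the receptor and ERK. Spry1 measured 29.5, 33.7 and 31.0 FPKM in ASTs, 4.71, 3.73 and 2.71 in A-iSCs, 4.58, 3.77 and 3.76 in P56-NPCs, and 14.2, 11.7 and 15.4 in P0-NPCs. It showed the largest change of any member between ASTs and A-iSCs, where it fell 8.44-fold by the means or by 2.80 on the log2 scale (SE 0.17, limma adjusted p = 1.68e-05). A-iSCs and P56-NPCs overlapped in FPKM but not in TPM (9.79 to 14.0 against 7.51 to 9.64), with P0-NPCs between them and ASTs on both scales.

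Spry4 measured 13.8, 12.5 and 14.0 FPKM in ASTs, 2.50, 2.14 and 2.47 in A-iSCs, 2.07, 2.08 and 2.09 in P56-NPCs, and 2.23, 2.53 and 2.02 in P0-NPCs. ASTs were alone at the high level, and A-iSCs were 5.67-fold lower (log2 change −2.10, SE 0.11, limma adjusted p = 9.11e-06). No difference between A-iSCs, P56-NPCs and P0-NPCs passed the test, although the samples of A-iSCs and P56-NPCs did not overlap. The interval of A-iSCs against P0-NPCs ran from −0.21 to 0.32 and that against P56-NPCs from −0.09 to 0.35 on the log2 scale. With library size alone, Spry4 was called lower in P56-NPCs than in A-iSCs (0.50 for A-iSCs against P56-NPCs, limma adjusted p = 0.00208) and than in P0-NPCs (−0.50, limma adjusted p = 0.00129), each within 0.03 of the median of all genes in that setting.

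Spry2 measured 34.4, 41.3 and 32.5 FPKM in ASTs, 24.5, 22.9 and 27.2 in A-iSCs, 26.6, 27.1 and 21.5 in P56-NPCs, and 17.7, 17.1 and 17.1 in P0-NPCs. Its drop in A-iSCs relative to ASTs, 1.45-fold or −0.52 on the log2 scale (SE 0.13, limma adjusted p = 0.0144), was the smallest of the 3 Sprouty genes. In TPM, Spry2 was lowest in P56-NPCs (51.3 ± 6.42) and not in P0-NPCs (67.2 ± 4.83). It missed the threshold without A-iSCs replicate 2 (−0.46, limma adjusted p = 0.0563) and with library size alone (−0.31, limma adjusted p = 0.0748).

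The Sprouty transcripts summed to 80.9 ± 5.71 FPKM in ASTs (SD, n = 3), 30.9 ± 1.93 FPKM in A-iSCs, 31.2 ± 3.30 FPKM in P56-NPCs and 33.3 ± 1.74 FPKM in P0-NPCs. The sums of the latter 3 groups overlapped in FPKM but not in TPM, where they were 101 ± 13.5 in A-iSCs, 63.8 ± 7.18 in P56-NPCs and 129 ± 8.10 in P0-NPCs. These TPM values include the shift of all genes between the groups given above. The makeup of the sum, which no scaling between samples changes, differed. Spry2 made up 80.3% ± 3.43 of the sum in A-iSCs and 80.3% ± 1.82 in P56-NPCs, against 44.5% ± 2.64 in ASTs and 52.0% ± 2.54 in P0-NPCs. Spry1 made up 12.1% ± 3.34 in A-iSCs and 13.0% ± 1.33 in P56-NPCs, against 38.8% ± 1.03 in ASTs and 41.2% ± 3.67 in P0-NPCs. For both shares, A-iSCs overlapped P56-NPCs and did not overlap ASTs or P0-NPCs (exact permutation test, two-sided, p = 0.1 for each pair with no overlap, the smallest that 3 against 3 samples allow). Set against the receptors, the Sprouty sum was 1.33 ± 0.197 times the receptor sum in ASTs, 0.545 ± 0.0405 in A-iSCs, 0.260 ± 0.0150 in P56-NPCs and 0.689 ± 0.0337 in P0-NPCs, with no overlap between any pair of groups. These quantities, too, were chosen after the values were seen.

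**Figure D3:**
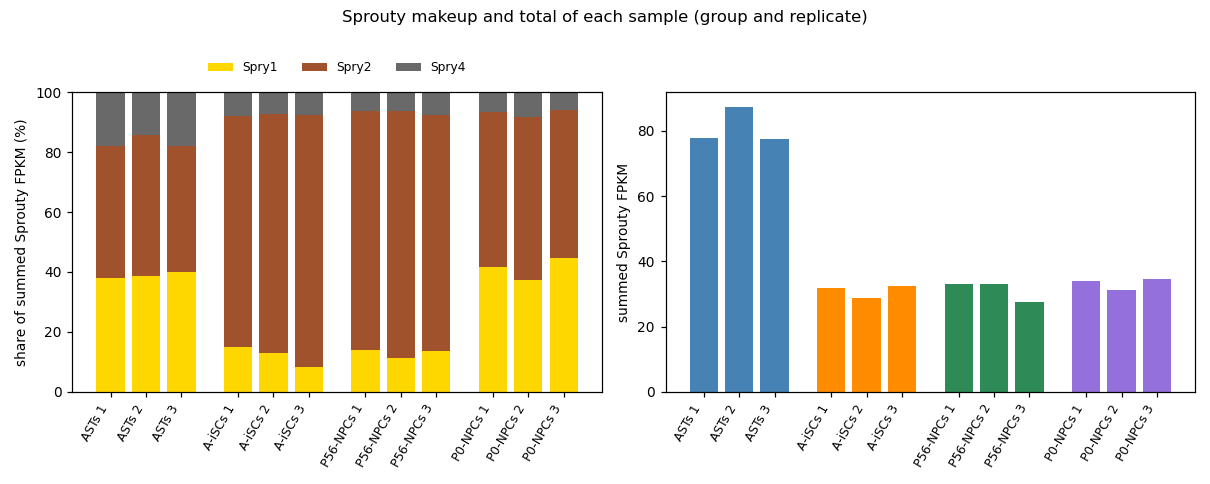
Left, share of Spry1, Spry2 and Spry4 in the summed Sprouty FPKM of a sample (y axis, percent); right, the summed Sprouty FPKM (y axis, from 0); each bar is 1 of the 12 samples, named by group and replicate. The ASTs totals of 77.6 to 87.5 FPKM lie above all others, and Spry2 takes 77.3% to 84.0% in A-iSCs and 78.6% to 82.2% in P56-NPCs.

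Etv5 encodes an ETS transcription factor induced by FGF and ERK signaling. It measured 66.5, 59.9 and 69.3 FPKM in ASTs, 26.7, 30.9 and 32.7 in A-iSCs, 27.4, 30.4 and 26.3 in P56-NPCs, and 16.2, 17.5 and 17.5 in P0-NPCs. ASTs lay above all other samples and P0-NPCs below all others, while A-iSCs and P56-NPCs overlapped. In TPM the lower part of this order changed, with 79.4 to 118 in A-iSCs, 53.8 to 60.6 in P56-NPCs and 63.7 to 69.2 in P0-NPCs, and ASTs stayed above all. The A-iSCs were 2.17-fold below ASTs (log2 change −1.09, SE 0.13, limma adjusted p = 0.000355). Its close relatives on the list of ERK-responsive genes gave other values. Etv4 differed from ASTs by −0.50 in A-iSCs, which was not called (limma adjusted p = 0.0732). It was higher than in ASTs in both NPC groups (log2 change 0.70 in P56-NPCs and 0.77 in P0-NPCs, limma adjusted p = 7.75e-05 and 9.05e-05), and Etv1 was higher than in ASTs in all 3 other groups (0.51 in A-iSCs, 2.67 in P56-NPCs and 0.63 in P0-NPCs, limma adjusted p = 0.00702, 1.31e-07 and 0.000425).

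The promoters of Spry1, Spry2 and Etv5 are shown because these genes, like Spry4 and Fgfr1, whose promoters are not printed, were called lower in every other group than in ASTs, and that of Fgfr3 because it was the member that rose in the spheres. Each run covers 300 bases around an annotated start site, most of them before it, from RefSeq on build GRCm38.p6, written 5′ to 3′ on the strand of the gene. Capitals mark the ETS core CCGGAA and the GC box GGGCGG, each searched on both strands (the other strand reads TTCCGG and CCGCCC), and no base here belongs to both. The windows are chr3:37639697-37639996 on the plus strand for Spry1, chr14:105896770-105897069 on the minus strand for Spry2, chr16:22439521-22439820 on the minus strand for Etv5 and chr5:33721474-33721773 on the plus strand for Fgfr3.
Spry1: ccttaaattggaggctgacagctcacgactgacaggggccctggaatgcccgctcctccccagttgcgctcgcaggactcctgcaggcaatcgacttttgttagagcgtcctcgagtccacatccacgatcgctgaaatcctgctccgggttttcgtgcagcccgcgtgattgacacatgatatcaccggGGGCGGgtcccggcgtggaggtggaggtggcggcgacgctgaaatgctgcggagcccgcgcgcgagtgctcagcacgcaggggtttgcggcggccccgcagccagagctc
Spry2: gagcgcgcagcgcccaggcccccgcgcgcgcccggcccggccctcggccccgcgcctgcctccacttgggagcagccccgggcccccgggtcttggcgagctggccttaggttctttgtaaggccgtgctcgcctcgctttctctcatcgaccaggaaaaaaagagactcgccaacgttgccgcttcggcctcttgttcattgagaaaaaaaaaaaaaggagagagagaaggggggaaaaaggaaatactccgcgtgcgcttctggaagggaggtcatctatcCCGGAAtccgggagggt
Etv5: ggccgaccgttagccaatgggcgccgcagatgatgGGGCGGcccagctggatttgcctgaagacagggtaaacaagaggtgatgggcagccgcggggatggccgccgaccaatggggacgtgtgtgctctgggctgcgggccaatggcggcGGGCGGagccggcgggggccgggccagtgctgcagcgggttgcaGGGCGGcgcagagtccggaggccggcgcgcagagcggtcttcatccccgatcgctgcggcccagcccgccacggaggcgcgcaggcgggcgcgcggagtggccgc
Fgfr3: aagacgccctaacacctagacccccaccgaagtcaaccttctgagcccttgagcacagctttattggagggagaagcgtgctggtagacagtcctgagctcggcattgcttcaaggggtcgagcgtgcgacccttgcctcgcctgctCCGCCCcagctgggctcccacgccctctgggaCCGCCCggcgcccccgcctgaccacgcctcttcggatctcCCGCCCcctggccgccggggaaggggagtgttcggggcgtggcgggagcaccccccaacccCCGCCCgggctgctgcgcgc
The ETS core occurred in the Spry2 window, 33 bases after the start site, and in none of the other 3 windows shown; 14.9% of the 32851 promoter windows of the genome held it. The GC box occurred 1 time in Spry1, 3 times in Etv5 and 4 times in Fgfr3, and 35.7% of all windows held it. Etv5 and Fgfr3 each have a second annotated window, not printed, with 0 and 2 GC boxes in turn and no ETS core. The 7-letter AP-1 motif TGACTCA was in none of these windows and in 5.20% of all. The 4 windows were rich in CpG, with 29 in Spry1, 28 in Spry2, 37 in Etv5 and 26 in Fgfr3, against a median of 7 over all windows. A match, or its absence, describes the letters of the window only.

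The comparison of A-iSCs with ASTs set spheres of incubation day 5 against monolayers of day 0. No monolayer of day 5 was among the samples, so sphere form, the agarose dishes and 5 days of culture cannot be told apart. Of the 9 tested members, 7 were called at an adjusted p under 0.05 (limma on log2(FPKM + 1)), where 54.8% of all 14087 tested genes were called. Fgfr3 was higher, as were 25.2% of all genes. The other 6 were lower, as were 29.6% of all genes: Fgf1, Fgfr1, Spry1, Spry2, Spry4 and Etv5. The median change of the 9 members was −0.52 on the log2 scale, against −0.06 over all tested genes. The largest falls were in Spry1, Spry4, Fgf1 (−1.29, SE 0.16, limma adjusted p = 0.000444) and Etv5. The sum of the pericyte, smooth muscle or fibroblast markers, mostly Acta2 in ASTs, moved with these falls, from 1890 or more to at most 66.6 FPKM. Rgs5 and Lum, at low levels, went the other way, with means of 0.311 and 0.0374 FPKM in ASTs and 0.699 and 0.128 FPKM in A-iSCs. The part of these markers was not tested. Fgf2 and Fgfr2 were not called. Every call of Fgf1, Fgfr3, Spry1, Spry4 and Etv5 held in each alternative that was run, whereas those of Fgfr1 and Spry2 did not, and library size alone left 5 members called.

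The comparison with the positive controls asked where the spheres stood relative to the NPC preparations. Against P56-NPCs, 4 of the 9 members were called, where 61.0% of all genes were called. Fgfr1 was higher in A-iSCs (0.79, SE 0.09, limma adjusted p = 0.000216). The call was higher for 30.1% and lower for 30.9% of all genes. Fgf1 was 21.5-fold lower in A-iSCs by the FPKM means, Fgfr3 6.16-fold and Fgfr2 1.69-fold (log2 change −0.72 for Fgfr2, limma adjusted p = 0.00231), and by the TPM means these folds were 13.2, 3.86 and 1.05. Fgf2, Etv5 and the 3 Sprouty genes were not called, with intervals of −0.51 to 0.29 for Spry1, −0.30 to 0.29 for Spry2 and −0.17 to 0.36 for Etv5. Both called and uncalled differences depend on the scaling between samples. With library size alone, the call of Fgfr2 was lost (−0.19, limma adjusted p = 0.210), Fgfr1 moved to 1.32, and Fgf2, Spry2, Spry4 and Etv5 were called higher in A-iSCs by 0.50 to 0.87, which gave 7 called members while the median of all genes moved to 0.49.

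Against P0-NPCs, 7 of the 9 members were called, where 65.1% of all genes were called, 31.5% higher and 33.6% lower. Higher in A-iSCs were Fgf2 (1.79, SE 0.27), Fgf1 (1.42, SE 0.16), Fgfr2 (0.93, SE 0.14), Etv5 (0.78, SE 0.11), Fgfr3 (0.55, SE 0.11) and Spry2 (0.50, SE 0.11). Spry1 was lower, by 1.66 on the log2 scale (SE 0.18, limma adjusted p = 0.000111). The P0-NPCs means of Fgf1 and Fgf2, 0.338 and 0.730 FPKM, lie below the 1 FPKM added before taking logs, which shrinks these changes. On fragments, limma-voom gave 2.97 for Fgf1 and 2.79 for Fgf2, and a pseudocount of 0.1 gave 2.64 and 2.61. Fgfr1 and Spry4 were not called, and the interval of Fgfr1 ran from −0.34 to 0.18. As ASTs, A-iSCs and NPC samples recur across these comparisons, their results are not independent of each other.

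The NPC groups also differed from ASTs and from each other. All 9 members were called between P56-NPCs and ASTs, where 78.9% of all genes were called: Fgf1, Fgfr2 and Fgfr3 were higher, as were 39.1% of all genes, and the other 6 lower, as were 39.8%. Between P0-NPCs and ASTs, 8 were called, all lower in P0-NPCs, where 79.0% of all genes were called, 38.1% higher and 40.9% lower. Fgfr3 was the exception (0.11, 95% interval −0.10 to 0.33, limma adjusted p = 0.291). With library size alone, Fgfr3 was called higher in P0-NPCs (0.37, limma adjusted p = 0.0129) and the call of Fgfr1 was lost (−0.046, limma adjusted p = 0.704), which left 7 lower and 1 higher, while the median of all genes moved to 0.21. Between P56-NPCs and P0-NPCs, 8 were called, where 78.8% of all genes were called, 39.7% higher and 39.0% lower. Fgf1, Fgf2, Fgfr2, Fgfr3, Spry2 and Etv5 were higher in P56-NPCs and Fgfr1 and Spry1 lower. With library size alone, the calls of Spry2 (0.50, which turned to −0.10, limma adjusted p = 0.336) and Etv5 (0.68, which fell to 0.079, limma adjusted p = 0.266) were lost, while the median of all genes moved to −0.53. Oligodendrocyte markers, at 10800 FPKM or more in P56-NPCs and at most 75.9 FPKM elsewhere, moved with this contrast, as did a mitochondrial share of 16.5% to 17.6% of fragments against 2.94% to 7.03% elsewhere, and their part was not tested.

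**Figure D4:**
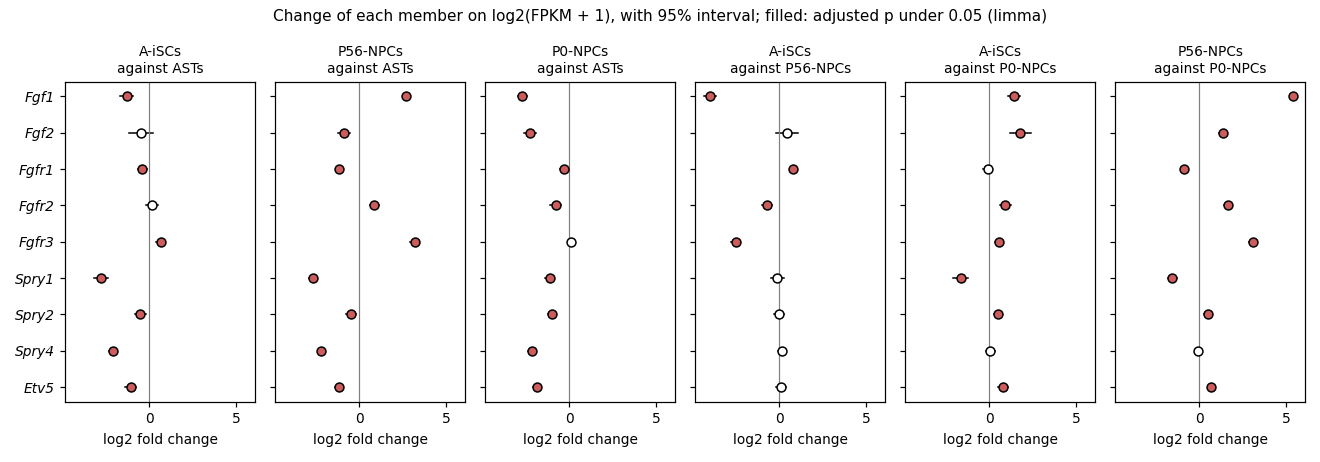
Log2 fold change of the 9 tested members (x axis, on log2(FPKM + 1)) in the 6 comparisons, first-named group minus second. Bars are 95% intervals and filled points have a limma adjusted p under 0.05; in A-iSCs against ASTs 7 points are filled, and in A-iSCs against P56-NPCs the points of Spry1, Spry2, Spry4 and Etv5 are open and near 0.

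The rest of the pathway was read from lists of 100 further genes. Between A-iSCs and ASTs, 74 of them were tested, 9 were higher and 37 lower, with a median of −0.56 against −0.06 over all genes. The 46 called genes are 62.2% of those tested, where 54.8% of all genes were called (25.2% higher and 29.6% lower). All 6 tested genes for co-receptors, the decoy receptor and FGF-binding proteins were lower, among them Fgfbp3, a carrier that releases FGFs from the matrix (39.2 to 10.1 FPKM, log2 change −1.87), and Cdh2, N-cadherin (108 to 35.7 FPKM, −1.57). Heparan sulfate proteins and their modifying enzymes gave 9 lower and no higher gene of 17, which is 52.9% called against 54.8% of all genes, led by the glypican gene Gpc4 (221 to 31.5 FPKM, −2.77) and the sulfotransferase gene Hs6st2 (4.79 to 0.288 FPKM, −2.15). Adaptors and the ERK cascade were mixed, with 4 higher, 3 lower and 13 uncalled of 20, or 35.0% called: Mapk3, which encodes ERK1, was higher (0.70) and Hras lower (−1.84). Limma adjusted p-values of the genes named here ranged from 8.28e-06 to 0.00468.

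Further feedback inhibitors gave 7 lower and 2 higher of 12 tested, where 29.6% of all genes were lower and 25.2% higher. The ERK phosphatase genes Dusp5 (44.7 to 6.94 FPKM, log2 change −2.56, limma adjusted p = 5.37e-05) and Dusp4 (11.7 to 3.82 FPKM, −1.34, limma adjusted p = 0.00499) were lower along with the Sprouty genes. Lrig1, an inhibitor of receptor kinases, was higher (0.87, limma adjusted p = 0.0297). Of 14 tested ERK-responsive genes, 8 were lower and 2 higher, against the same 29.6% and 25.2% of all genes. The lower ones were led by Ccnd1, cyclin D1 (428 to 12.3 FPKM, −5.00, limma adjusted p = 5.14e-06), and Epha2 (54.1 to 2.44 FPKM, −4.02, limma adjusted p = 6.07e-06). The higher ones were Fos (40.2 to 116 FPKM, 1.47, limma adjusted p = 0.00114), an immediate early gene, and Etv1. Fos is also on the list of genes that respond to cell dissociation, whose sum reached 220 to 266 FPKM in ASTs and 283 to 531 FPKM in the spheres. Within that list Fos, Junb and Atf3 rose with no overlap, Jun fell (means of 91.9 to 68.9 FPKM), and Egr1 and Ier2 overlapped. The 4 markers of cycling cells summed to 88.3 to 94.9 FPKM in ASTs but 14.5 to 16.9 FPKM in A-iSCs. The part of either list in these changes was not tested.

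**Figure D5:**
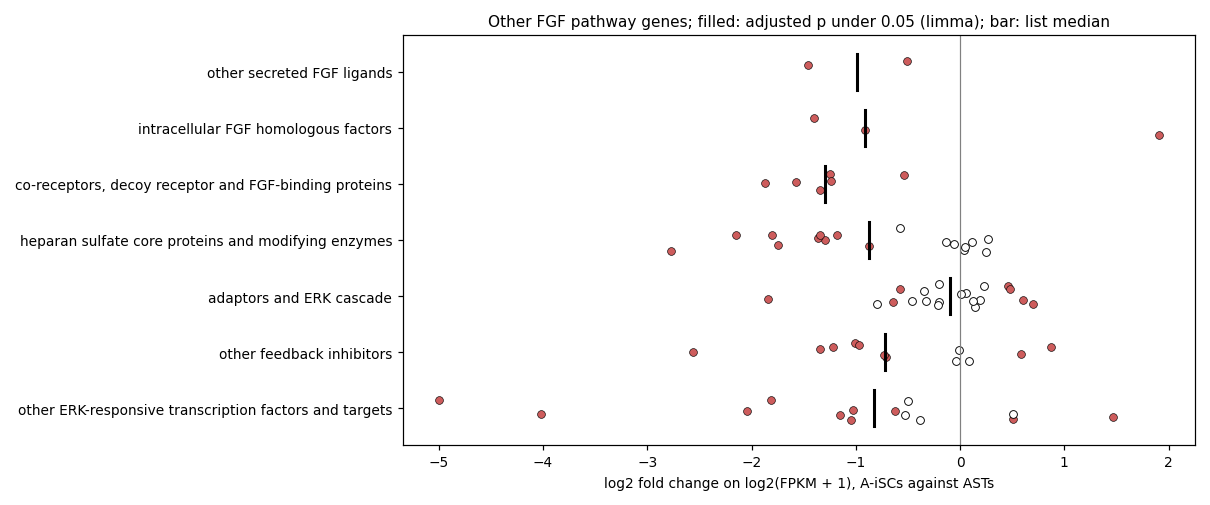
Log2 fold change between A-iSCs and ASTs (x axis, on log2(FPKM + 1)) of the 74 tested genes of the wider pathway, by list (y axis; height within a list is random). Filled points have a limma adjusted p under 0.05 and the bar is the median of the list; the 6 co-receptors, decoy receptor and FGF-binding proteins all lie below 0, and the adaptors and ERK cascade centre at −0.10.

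Other ligands were scarce, with 2 of 16 further secreted FGF genes tested between A-iSCs and ASTs. Fgf7 (2.64 to 0.320 FPKM, log2 change −1.46, limma adjusted p = 5.59e-05) and Fgf18 (3.49 to 2.15 FPKM, −0.51, limma adjusted p = 0.0179) were both lower. Of the intracellular FGF homologous factors, which are not secreted and bind sodium channels, Fgf11 was higher (0.253 to 3.76 FPKM, 1.91, limma adjusted p = 7.05e-05) and Fgf12 (−0.91, limma adjusted p = 0.000558) and Fgf13 (−1.40, limma adjusted p = 0.000163) lower. In P56-NPCs the klotho co-receptor gene Kl averaged 7.63 FPKM against 0.0154 FPKM in ASTs (limma log2 change 3.06), and the glypican gene Gpc5 averaged 35.3 FPKM against 0.0522 FPKM (5.11). In P0-NPCs the Dusp4 mean was 38.5 FPKM, above the 11.7 FPKM of ASTs (1.70, limma adjusted p = 0.000466), opposite to Dusp5 (−4.39, limma adjusted p = 1.95e-08).

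The genes whose pattern over the 12 samples was most like that of a member, by Pearson correlation of log2(FPKM + 1) among 9616 protein-coding genes, were Zfp365 for Fgf1 (r = 0.997), Cflar for Fgf2 (0.990), Tcf19 for Fgfr1 (0.990), Enpp4 for Fgfr2 (0.989), Tlcd1 and Pex5l for Fgfr3 (0.996), Slc35f1 and Fhl2 for Spry1 (0.989), Txndc15 for Spry2 (0.966), Ereg for Spry4 (0.997) and Pdlim5 for Etv5 (0.992). Among the members, Spry2 and Etv5 (r = 0.93) and Fgf1 and Fgfr2 (0.91) were most alike, and Fgfr1 and Fgfr3 were most opposed (−0.96). These values describe 12 samples that fall into 4 groups and share libraries, and they carry no test.

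Each member lies in the genome with the coordinates of build GRCm38, as the table gives them. Fgf2 spans chr3:37348346-37410108 and Spry1 chr3:37639947-37644598, both on the plus strand and 229838 bases apart. Fgf1 (chr18:38838673-38929472) and Spry4 (chr18:38586247-38601415) form a like pair on the minus strand, 237257 bases apart. The receptor genes are Fgfr1 (chr8:25513654-25575718, plus), Fgfr2 (chr7:130162451-133123350, minus), Fgfr3 (chr5:33721674-33737068, plus) and Fgfr4 (chr13:55152640-55168759, plus). The Fgfr2 span is 2960900 bases as annotated, against 15395 to 62065 bases for the other receptor genes. The promoter window of Fgfr2 lies at chr7:130266759-130267058, so most of that span lies before this start site. It was not checked as the extent of the gene. Spry2 (chr14:105891947-105896819) and Etv5 (chr16:22381309-22439719) lie on the minus strand. Exons of 5 members overlap those of another gene, and without stated strand information reads of an opposite pair cannot be told apart. Nudt6 covers 9.44% of the exon bases of Fgf2 from the opposite strand and measured 0.621 to 1.41 FPKM, and G630022F23Rik covers 13.9% of Fgfr3 and measured 0.0445 to 1.91 FPKM. Gm42922 covers 24.4% of Spry1 and measured at most 0.281 FPKM in any sample. Fgfr2 shares 3.04% of its exon bases with Ctbp2 on the same strand, and Fgfr1 shares 1.66% with Gm16159 on the opposite strand.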

How the data were processed

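Libraries of total RNA from 12 samples (NEBNext Ultra) were read from both ends on an Illumina HiSeq. The authors deposited FPKM values per gene and sample, already scaled between samples; the submitters' notes name Bowtie 0.12.2 and mm8, whereas 54899 of 55154 gene IDs shared with GENCODE M21 have the start and end of GRCm38. Multiplying FPKM by gene length and by a library size inferred for each sample from the steps between values gave whole fragments for 100% of values above 0, very abundant genes not counted (tolerance 0.01). This inferred size was 0.744 to 1.22 times the fragments of a sample. Groups came from the sample titles. For each pair of groups, log2(FPKM + 1) of genes with a mean of at least 1 FPKM in either group was fitted with limma 3.58.1 (R 4.3.3, moderated, trend) and Benjamini-Hochberg adjustment over all genes tested, called under 0.05. The script was tested on simulated data. Alternatives were 2 other scalings, a pseudocount of 0.1, no filter, 1 fit of all groups, a replicate block, limma-voom on fragments, TPM levels and leaving out each sample. No 2 samples of the same group had identical values. All members are named; of other lists the called genes with the largest changes and no overlap between groups, plus Etv4, named after its values were seen. The members and lists were chosen with earlier results of these data known.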

Additional observations from a re-analysis of the deposited data

How the results depend on the processing

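Across 54 member-comparison values and 13 alternatives each, 674 of 702 values kept direction and call, 12 lost the call and 7 gained it. Of the 11 that turned sign, 1 is among the lost and 1 among the gained calls, and 9 were uncalled before and after. Scaling by library size alone moved the median of all genes to 0.13 (A-iSCs against ASTs), −0.34 (P56-NPCs against ASTs), 0.21 (P0-NPCs against ASTs), 0.49 (A-iSCs against P56-NPCs), −0.09 (A-iSCs against P0-NPCs) and −0.53 (P56-NPCs against P0-NPCs). With it, 7 members instead of 4 were called between A-iSCs and P56-NPCs, where Spry1 turned to 0.32 and Spry2 to 0.53; relative to the median of all genes these were −0.17 and 0.03. Spry4 between A-iSCs and P0-NPCs turned to −0.00045, and Spry2 between P56-NPCs and P0-NPCs to −0.10, which is 0.43 relative to the median. Library size alone also ended the calls of Fgfr1 (−0.19) and Spry2 (−0.31) between A-iSCs and ASTs, of Fgfr1 between P0-NPCs and ASTs (−0.046), of Fgfr2 between A-iSCs and P56-NPCs (−0.19) and of Etv5 between P56-NPCs and P0-NPCs (0.079), and added those of Fgfr3 between P0-NPCs and ASTs (0.37) and of Spry4 between P56-NPCs and P0-NPCs (−0.50). In the uncalled Spry2 difference between A-iSCs and P56-NPCs, the sign turned with upper-quartile scaling (0.015), limma-voom (0.016) and without P56-NPCs replicate 1 (0.036), P56-NPCs replicate 2 (0.049) or A-iSCs replicate 2 (0.048); Spry1 turned without A-iSCs replicate 3 (0.050) and Spry4 between A-iSCs and P0-NPCs without P0-NPCs replicate 3 (−0.0022). Leaving out 1 sample gave −0.26 to 0.050, −0.11 to 0.049 and −0.0022 to 0.11 for these 3 differences, Spry1, Spry2 and Spry4 in turn. The cause was not tested. Fgfr1 between P0-NPCs and ASTs missed the threshold without ASTs replicate 1 or 3 (−0.31 each). Leaving out 1 sample gave 6 to 8 called members between A-iSCs and ASTs, 7 to 8 between P0-NPCs and ASTs, and an unchanged count in the other 4 comparisons. Same-numbered samples of A-iSCs and ASTs correlated at −0.38, 0.34 and 0.43 in their deviations from the group means, so the numbers were not taken to pair samples; with a replicate block the counts of called members stayed at 7, 9, 8, 4, 7 and 8. Without the filter, Fgfr4 gave −0.20 between A-iSCs and ASTs (limma adjusted p = 0.00902), which rests on 0 to 14 fragments, −0.29 between A-iSCs and P0-NPCs (0.00241) and −0.20 between P56-NPCs and P0-NPCs (0.00974), with 19 to 32 fragments in P0-NPCs. In TPM, 5 members kept the order of the group means, namely Fgf1, Fgf2, Fgfr2, Fgfr3 and Fgfr4. The highest group of Fgfr1 changed from ASTs to P0-NPCs. The lowest group changed to P56-NPCs, from P0-NPCs for Spry2 and Etv5 and from A-iSCs for Spry1. For Spry4, A-iSCs and P0-NPCs changed places.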
